A study of Mus musculus with 12 samples.

Results

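Meiotic chromosomes are organized by proteins made almost exclusively in germ cells, and the data described here are the RNA and ribosome footprint levels of 9 mouse genes that encode them: Sycp2, Sycp3, Hormad1 and Hormad2 of the chromosome axis, and Sycp1, Syce1, Syce2, Syce3 and Tex12 of the central region of the synaptonemal complex. The genes were chosen by name, as structural components of the axis or of the complex, and each had 1 gene row among the 20620 gene rows of the counts table. Testes came from C57BL/6 mice at postnatal day 16. The 4 groups were Mael+/- RNA, Mael-/- RNA, Mael+/- footprints and Mael-/- footprints, with 3 replicates each. Mael encodes Maelstrom, a protein of the piRNA pathway that silences transposons in fetal and adult male germ cells. The control mice were heterozygous and so carried 1 mutant Mael allele, and no wild-type testes were among the 12 libraries. Lysates were made with cycloheximide, which holds ribosomes on the mRNA. From each lysate, total RNA depleted of rRNA and nuclease-protected ribosome footprints were sequenced, so each of the 6 extracts gave 1 library of each kind. Nothing in the labels says whether an extract came from 1 animal or from several.

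At postnatal day 16 the first wave of spermatogenesis is in meiotic prophase. In leptotene, cohesin rings that hold sister chromatids are joined by SYCP2 and SYCP3, which form the axial element along each chromosome, and by HORMAD1 and HORMAD2, which coat axes that have not yet paired. In zygotene, homologous axes are joined by SYCP1, the transverse filament that spans the gap between them like the teeth of a zip. The central element, made of SYCE1, SYCE2, SYCE3 and TEX12, holds opposing SYCP1 molecules together, and synapsis is complete in pachytene. TRIP13 removes the HORMAD proteins from synapsed axes. Testes are mixtures of germ and somatic cells, and in whole testes fewer cells of one type and less RNA per cell cannot be told apart.

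The 9 genes lie on 8 chromosomes of the mm10 mouse genome, with Sycp1 and Hormad1 both on chromosome 3. Their promoters were searched for 4 short motifs on both strands, in windows from 250 bases before to 50 bases after the RefSeq start sites of GRCm38.p6, the assembly that mm10 is built from. The E-box CACGTG was found in the windows of 5 of the 9 genes, against 8.09% of the 27025 genes with a window. It is shown because E-box and E2F letters are bound by a repressor complex that keeps germline genes silent in other cells. The 30-base stretches that hold it are printed in the direction of the gene, with the motif in capitals.
Sycp1, chr3:102936176-102936205, minus strand: agagaacccggCACGTGggaagggaaatct
Sycp3, chr10:88459512-88459541, plus strand: ccgttggctccCACGTGagaacgggcatgg
Sycp3, chr10:88459533-88459562, plus strand: cgggcatggagCACGTGctaggaggcgggg
Syce2, chr8:84872159-84872188, plus strand: gtttcattcagCACGTGctcggggcggggc
Tex12, chr9:50561343-50561372, minus strand: cgcgagactgtCACGTGgctcgcgcgctgc
Hormad1, chr3:95559609-95559638, plus strand: aaagggtgcgcCACGTGccagtgacagtta
Hormad1, chr3:95559646-95559675, plus strand: tgcgcactgcgCACGTGctgaccggagcgc

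The E2F core TTCCCGC was found for 4 of the 9 genes, against 5.29% of all genes, and all 4 also held the E-box. In each it lay on the strand opposite to the gene, so it reads GCGGGAA below.
Sycp3, chr10:88459429-88459458, plus strand: aggaaggaacaGCGGGAAagtgctgcttct
Syce2, chr8:84872213-84872242, plus strand: agggcgctgagGCGGGAAaagacggaatgg
Tex12, chr9:50561395-50561424, minus strand: ggaggaaaaagGCGGGAAgtaaagggaagt
Hormad1, chr3:95559571-95559600, plus strand: cgcagcttttgGCGGGAAtagtggtctggc

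The motif CNCCTCAG, which is named for STRA8 and MEIOSIN, the pair of factors that start the meiotic gene programme, was found for 4 genes, against 9.12% of all genes. These were Sycp1, Syce2, Tex12 and Hormad2, and the matches again lay on the strand opposite to the gene. The match in Syce2 overlaps its E2F match.
Sycp1, chr3:102936051-102936080, minus strand: ttccaggaggttCTGAGGGGaagctcacgg
Syce2, chr8:84872208-84872237, plus strand: cgcagagggcgCTGAGGCGggaaaagacgg
Tex12, chr9:50561257-50561286, minus strand: gtgctgcggctCTGAGGCGgcaggtcgtgg
Hormad2, chr11:4441173-4441202, minus strand: agcaaggcctgCTGAGGGGccaaccttaga

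The core AACNGNC of A-MYB, the transcription factor of pachytene spermatocytes, is short and was found for 6 of the 9 genes and for 36% of all genes. Syce2, Syce3 and Hormad1 each had 2 windows, so they had more bases searched than the other 6. A match is a string of letters and was not tested for binding.

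The total of gene counts was 13697267 to 27462358 in the RNA libraries and 7609932 to 13233565 in the footprint libraries. Counts were scaled to CPM, counts relative to the library's total, with TMM factors, which align the bulk of genes between libraries of the same assay. The genotype labels were checked on Mael itself, which had 5045, 4314 and 3800 counts in the Mael+/- RNA libraries and 1, 2 and 0 counts in the Mael-/- RNA libraries. In footprints it had 1294, 660 and 863 counts against 0, 0 and 7, so both assays followed the labels. Among marker genes, the spermatid genes Prm1 and Tnp2 were at 0 in all 12 libraries, and 10 spermatid markers summed to between 4.24 and 10.7 CPM. The 10 spermatogonial and 10 Sertoli cell markers were all detected in every library. Extract 1 of Mael+/- stood apart from the other 5 in many meiotic genes, though not in all meiotic lists. Values without it, chosen after seeing the data where they go beyond the fits that leave out each library, stand beside the results that rest on it.

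Counts of the 9 genes ran from 100, for Syce3 in Mael-/- footprint library 3, to 13968, for Sycp1 in Mael+/- RNA library 1. All 9 genes passed the filter on low counts in both assays. Sycp3 (Ensembl ENSMUSG00000020059, chr10:88459569-88473236) had the highest level per kilobase in each of the 4 groups, and Hormad2 (ENSMUSG00000020419, chr11:4345814-4441105) had the lowest. In RNA, per kilobase of the longest coding transcript, Sycp3 was at 212 ± 145 CPM (SD, n = 3) in Mael+/- and 149.9 ± 34.1 in Mael-/-. Hormad2 was at 14.3 ± 6.14 and 10.6 ± 1.12 CPM per kilobase of RNA. Among 14007 genes with an RNA level per kilobase, averaged over both genotypes, Sycp3 stood at percentile 98.1 and Hormad2 at percentile 52.9. The Mael+/- means rest in part on library 1. Over Mael+/- libraries 2 and 3 alone, Sycp3 was at 129 ± 24.4 CPM per kilobase (SD, n = 2), below its Mael-/- mean, and it stayed the highest of the 9 while Hormad2, at 10.8 ± 0.343, stayed the lowest. Their percentiles without that library were 97.2 and 49.5.

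Between these ends the central element gene Syce2 came second in RNA, at 135 ± 19.9 CPM per kilobase in Mael+/- and 124 ± 12 in Mael-/-. It was followed by Sycp1, at 99.4 ± 68.2 and 74.5 ± 21.6, and by Syce3, at 91.8 ± 30.7 and 67.4 ± 6.41. Syce1, Hormad1, Sycp2 and Tex12 lay between 35.5 and 69.9 CPM per kilobase in both genotypes. Most neighbours in this order overlapped in range over their 3 libraries. In Mael+/- RNA the only neighbours that did not overlap were Tex12 and Hormad2, and in Mael-/- RNA they were Syce2 above Sycp1 and Sycp2 above Hormad2. Besides Sycp3, 3 genes had Mael+/- RNA means that moved by over 1.5 times with library 1. Over the other 2 libraries Sycp1 was at 61.0 ± 21.5, Hormad1 at 39.2 ± 10.4 and Sycp2 at 38.5 ± 5.04 CPM per kilobase of RNA, so that Sycp1 stood below Syce3, at 74.4 ± 7.79.

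In footprints per kilobase of coding sequence, Sycp3 was at 648 ± 440 CPM in Mael+/- and 379 ± 1.99 in Mael-/-. Its lowest library lay above the highest library of the next gene in both genotypes. Tex12, which codes for a short protein of the central element, was at 156 ± 83.1 CPM per kilobase in Mael+/- footprints and 132 ± 6.34 in Mael-/-. Hormad1 was at 177 ± 118 and 109.6 ± 7.44 CPM per kilobase of coding sequence. Both genes stood higher in the order of the 9 by footprints than by RNA, in each genotype. Hormad2, at 33.6 ± 18.8 and 23.9 ± 4.29, was again the lowest of the 9. Without Mael+/- library 1 the footprint mean of Sycp3 in Mael+/- was 395 ± 64.8 CPM per kilobase (SD, n = 2), close to the Mael-/- mean. Hormad1 was then at 109 ± 11.1, Sycp1 at 73.3 ± 8.23 and Sycp2 at 53.4 ± 1.77 in Mael+/- footprints, each also over 1.5 times below its mean of 3 libraries. Sycp3 was still the highest of the 9 and Hormad2, at 22.7 ± 1.49, still the lowest.

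**Figure D1:**
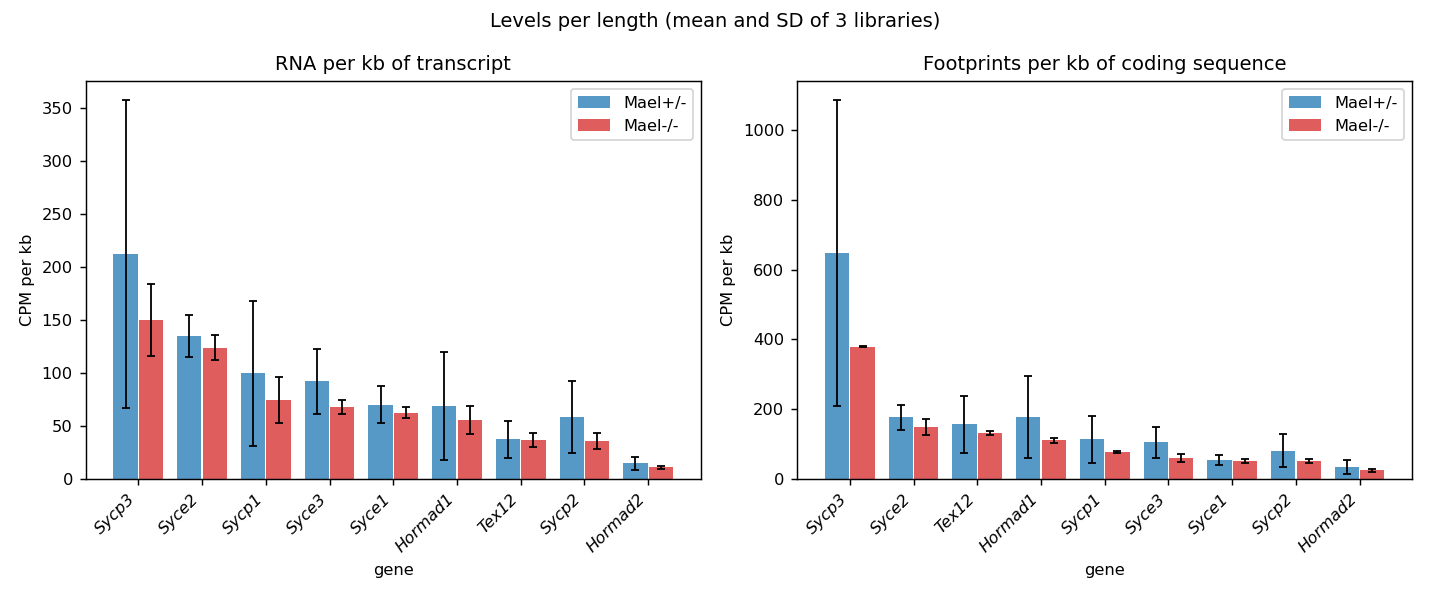
Levels of the 9 genes per kilobase, with RNA per kilobase of transcript on the left and footprints per kilobase of coding sequence on the right, both in CPM per kb on axes that start at 0. Bars are means and error bars SD of 3 libraries, blue for Mael+/- and red for Mael-/-, and the genes are ordered by their Mael-/- mean. Sycp3 stands highest and Hormad2 lowest in both panels, and the error bars of Mael+/- are the wider ones for all 9 genes.

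The question of the RNA comparison was whether loss of Mael changed the level of each mRNA. No gene of the axis or central region passed the test, and all 9 estimates lay below 0 (lower in Mael-/-) with a median log2 difference of -0.42, beside -0.00 over all 14685 genes tested. The test was edgeR's quasi-likelihood test with Benjamini-Hochberg adjustment over all genes, called at an adjusted p under 0.05. It called 17 genes, or 0.116% of those tested, and 793 genes had an unadjusted p under 0.05. None of the 9 genes had one, and DESeq2 also called 0 of the 9 among the 64 genes it called.

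The axial element genes had the lowest estimates. Sycp2 (ENSMUSG00000060445, chr2:178345293-178407685) had 556, 200.0 and 241 CPM in the Mael+/- RNA libraries and 230.5, 224 and 153 CPM in the Mael-/- libraries. The difference was -0.71 on the log2 scale (SE 0.33, 95% interval -1.46 to 0.03, edgeR adjusted p 0.937). The Mael+/- library of extract 1 stood at 2.31 times the next highest library, and the other 5 overlapped between genotypes. Sycp3 had 431, 127 and 167 CPM against 172, 209 and 131 CPM, a log2 difference of -0.50 (SE 0.38, edgeR adjusted p 0.982). Here Mael-/- libraries 1 and 2 each lay above both Mael+/- libraries 2 and 3.

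The HORMA-domain genes followed the same pattern of 1 high library. Hormad1 (ENSMUSG00000028109, chr3:95559677-95587671) had 176, 44.1 and 64.5 CPM in Mael+/- RNA and 80.7, 92.0 and 57.0 CPM in Mael-/- RNA. Its log2 difference was -0.31 (SE 0.42, interval -1.25 to 0.63), the widest interval of the 9. Hormad2 had 42.2, 21.7 and 20.8 CPM against 19.2, 23.3 and 20.0 CPM, a log2 difference of -0.43 (SE 0.25). Apart from the first Mael+/- library, the values of Hormad2 spanned only 19.2 to 23.3 CPM.

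Among the central region genes, Sycp1 (ENSMUSG00000027855, chr3:102818499-102936100) had 605, 157 and 262 CPM in Mael+/- RNA and 302, 296 and 171 CPM in Mael-/- RNA. Its log2 difference of -0.42 had an SE of 0.41. The gene thus varied more within Mael+/- than between the genotypes. Syce3 (ENSMUSG00000078938, chr15:89390174-89410503) had 60.8, 38.3 and 33.0 CPM against 30.4, 35.9 and 30.7 CPM, with a log2 difference of -0.44 (SE 0.20, interval -0.89 to 0.01). Its unadjusted p of 0.0523 from the edgeR fit was the smallest of the 9, and its adjusted p was 0.923.

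Syce1, Syce2 and Tex12 had the RNA estimates closest to 0. Syce1 (ENSMUSG00000025480, chr7:140777229-140787852) had 129, 98.0 and 79.1 CPM in Mael+/- RNA and 86.2, 99.8 and 87.0 CPM in Mael-/-, a log2 difference of -0.16 (SE 0.16). Syce2 (ENSMUSG00000003824, chr8:84872111-84888221) had 142, 128 and 106 CPM against 107, 128 and 109.8 CPM, a log2 difference of -0.13 (SE 0.12). These are the central element genes in which the first Mael+/- library was least far from the rest. Tex12 (ENSMUSG00000032065, chr9:50556819-50561325) had 57.4, 25.2 and 29.6 CPM against 35.6, 43.0 and 29.9 CPM, a log2 difference of -0.05 (SE 0.27). All 3 Mael-/- values of Tex12 lay between the first Mael+/- library and the other 2.

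**Figure D2:**
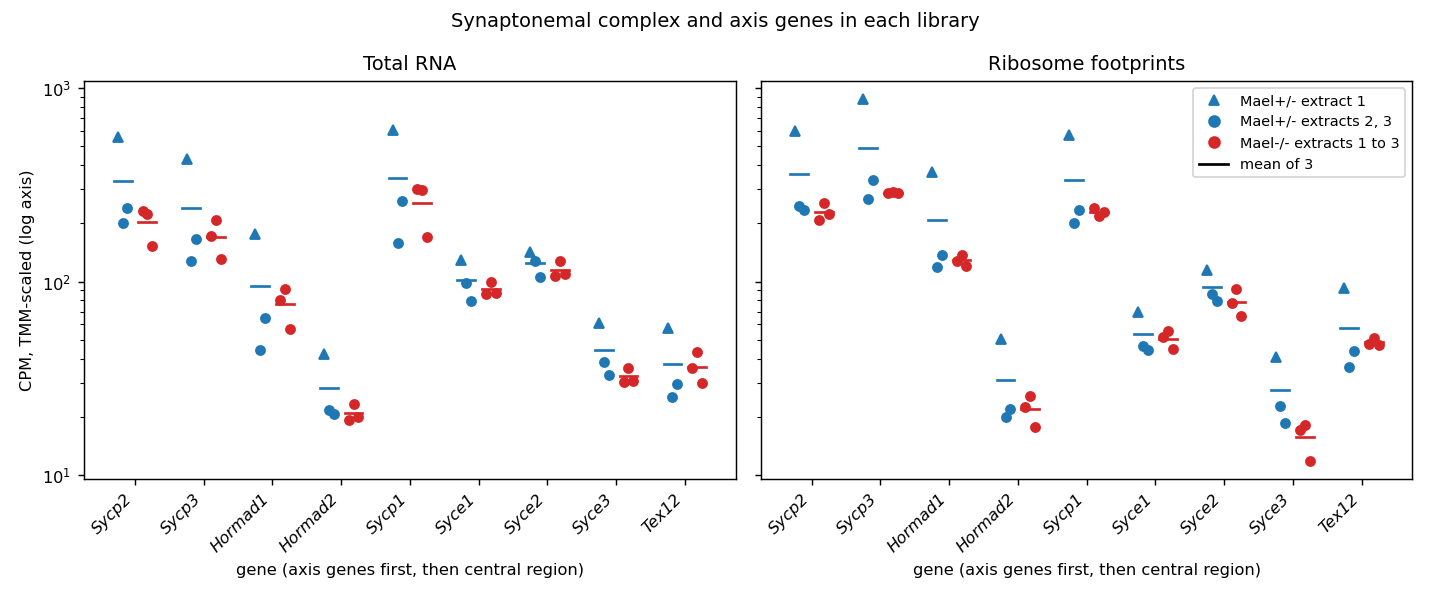
CPM of the 9 genes in each library on a log axis, in total RNA (left) and ribosome footprints (right). Triangles are Mael+/- extract 1, blue circles the other Mael+/- extracts, red circles the Mael-/- extracts, and lines the mean of 3 libraries. The triangle is the highest of the 6 points for all 9 genes in both panels.

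In footprints, which count ribosomes on the coding sequence, the comparison asks the same question of the amount of each mRNA under translation. No gene of the 9 passed the test, and again all 9 estimates lay below 0, with a median log2 difference of -0.55 beside -0.01 over all 13500 genes tested. edgeR called 8 genes, or 0.0593%, with 585 genes at an unadjusted p under 0.05. Sycp3 and Syce3 were among those 585, and DESeq2 called 0 of the 9 among the 26 genes it called.

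Syce3 had the lowest footprint estimate. Its footprint libraries held 40.9, 22.8 and 18.6 CPM in Mael+/- and 17.0, 18.2 and 11.9 CPM in Mael-/-. The groups did not overlap, by a margin of 18.6 to 18.2 CPM between the nearest libraries, and all Mael-/- libraries lay below all Mael+/- libraries in 4.85% of genes tested. The log2 difference was -0.80 (SE 0.27, interval -1.39 to -0.20, edgeR p 0.0133, adjusted p 0.998). Syce3 was the only one of the 9 genes whose groups did not overlap in footprints, and in RNA none was separated, where 5.03% of genes tested lay lower in all Mael-/- libraries. It also had the fewest counts, 100 to 386 per footprint library.

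The axis genes came next. Sycp3 had 878, 266 and 336 CPM in Mael+/- footprints and 288, 290.4 and 288 CPM in Mael-/- footprints, a log2 difference of -0.77 (SE 0.35, interval -1.54 to -0.01, edgeR adjusted p 0.998). The 3 Mael-/- libraries were nearly the same and lay between Mael+/- libraries 2 and 3. Hormad1 had 368, 119 and 137 CPM against 129, 138 and 120.3 CPM, a log2 difference of -0.69 (SE 0.34). Sycp2 had 604, 246 and 235 CPM against 209, 254 and 225 CPM, a log2 difference of -0.66 (SE 0.30). For both genes 1 Mael-/- library exceeded both Mael+/- libraries 2 and 3. Hormad2 had 50.7, 19.9 and 21.8 CPM against 22.3, 25.6 and 17.8 CPM, a log2 difference of -0.49 (SE 0.31).

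In the central region, Sycp1 had 570.4, 201 and 236 CPM in Mael+/- footprints and 239, 219 and 229.6 CPM in Mael-/- footprints, a log2 difference of -0.55 (SE 0.31). Tex12 had 92.6, 36.2 and 43.5 CPM against 47.5, 51.3 and 47.0 CPM, a log2 difference of -0.24 (SE 0.28). Every Mael-/- library of Tex12 lay above both Mael+/- libraries 2 and 3. Syce2 had 115, 86.5 and 79.4 CPM against 77.9, 91.2 and 66.4 CPM, a log2 difference of -0.25 (SE 0.15). Syce1 had 69.8, 46.2 and 44.3 CPM against 51.8, 55.7 and 44.7 CPM, a log2 difference of -0.07 (SE 0.17). Syce1 and Tex12 thus had the 2 footprint estimates nearest 0, and Syce2 was close to Tex12.

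Extract 1 of Mael+/- was the highest of the 6 libraries for 9 of the 9 genes in RNA and for 9 of the 9 in footprints. The same held for 27.5% of all genes tested in RNA and 26.5% in footprints. Over the mean of Mael+/- extracts 2 and 3, its log2 excess in RNA was largest for Hormad1 (1.72), Sycp1 (1.58), Sycp3 (1.57) and Sycp2 (1.34), and smallest for Syce2 (0.29) and Syce1 (0.55). An excess over 1 on the log2 scale was seen for 5 of the 9 genes in RNA, against 2.87% of genes tested, and for 6 of the 9 in footprints, against 2.41%. In footprints the excess was 1.55 for Sycp3, 1.52 for Hormad1, 1.39 for Sycp1, 1.33 for Sycp2, 1.28 for Hormad2 and 1.22 for Tex12. The 3 genes under 1 were Syce3 (0.99), Syce1 (0.62) and Syce2 (0.47), all of the central element. The excess was a description of 1 extract and was given no test.

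Among other genes of meiotic prophase, the pachytene and early prophase markers were high in the same extract. The 15 markers of pachytene spermatocytes, among them the sperm-lineage enzyme gene Ldhc and the piRNA-pathway gene Piwil1, summed to 958 CPM in RNA of Mael+/- extract 1. They summed to 329 and 365 CPM in the other Mael+/- extracts and to 268 to 305 CPM in Mael-/-. In footprints the sums were 1141 CPM in extract 1, 326 and 413 CPM in the other Mael+/- extracts, and 292 to 338 CPM in Mael-/-. No pachytene marker was at 0 in all 12 libraries, and only Pgk2, Adam3 and Acr were at 0 in some. The 10 early prophase markers summed to 1928 CPM in RNA of extract 1 and to 1065 to 1372 CPM in the other 5 RNA libraries. The axis cohesins summed to 1157 CPM in RNA of extract 1 and to 1073 CPM in Mael-/- extract 2, with a list median of 0.17 in both. The 7 measured genes of axis regulation and break formation were closer, at 246 CPM in RNA of extract 1 and 240 CPM in Mael+/- extract 2. In footprints they were at 273 and 235 CPM. Spermatogonial markers in RNA summed to 1153 CPM in extract 1, within the 1112 to 1359 CPM of the other 5. Their footprints summed to 1382 CPM in extract 1, below the 1409 to 1569 CPM of the other 5. Sertoli markers summed to 1858 CPM in RNA of extract 1, below the 1962 to 2327 CPM of the other 5, and to 2697 CPM in footprints, below 3526 to 4010 CPM. The part of cell composition in the values of the 9 genes was not tested.

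**Figure D3:**
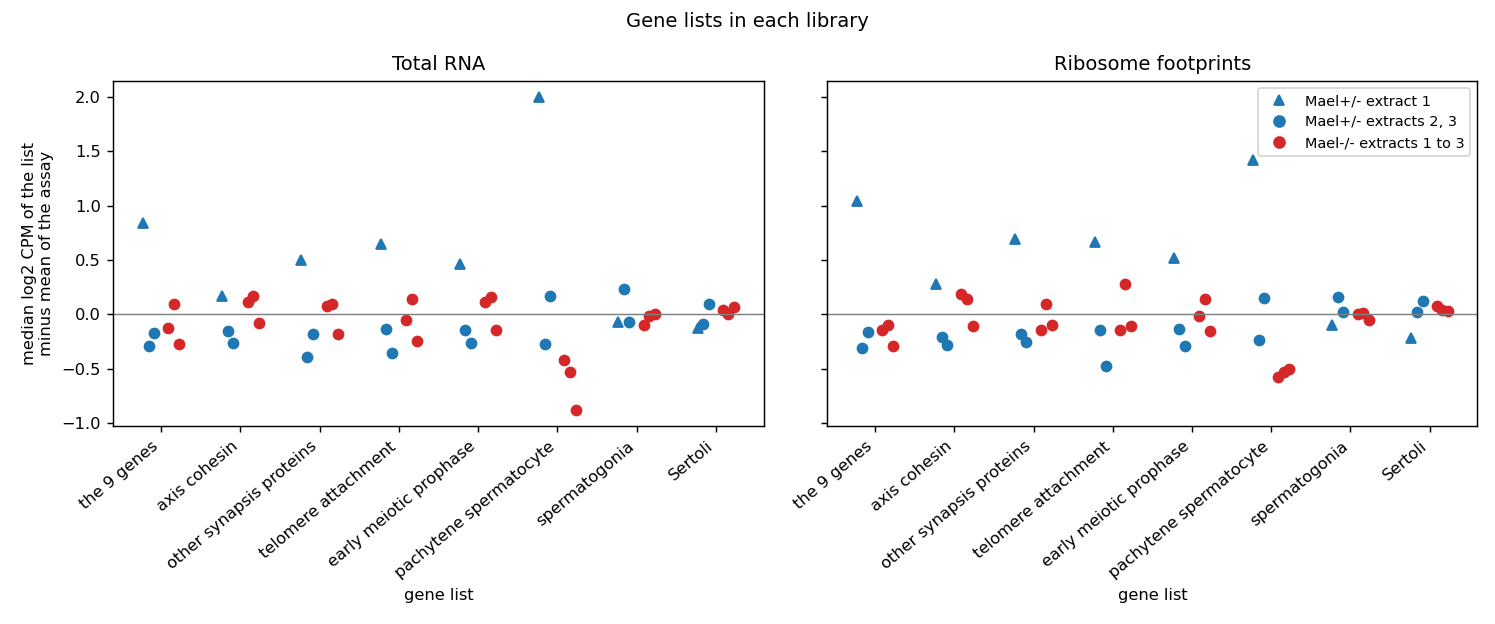
Median over each gene list of log2 CPM minus the mean of the 6 libraries of the assay, in total RNA (left) and footprints (right). Each point is 1 library, with Mael+/- extract 1 as a triangle, the other Mael+/- extracts as blue circles and Mael-/- as red circles. The triangle stands at 0.84 in RNA and 1.04 in footprints for the 9 genes and at 2.0 and 1.42 for the pachytene markers, while for spermatogonia it lies at -0.07 and -0.10. Not all lists are drawn: for axis regulators and break formation genes, extract 1 lay at 0.08 in RNA and 0.35 in footprints.

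Without extract 1 of Mael+/-, the differences between genotypes lay on both sides of 0. That extract was singled out as the highest for all 9 genes, and leaving it out raises these estimates. In RNA the median log2 difference of the 9 genes became 0.04, with 4 estimates below 0 and 5 above, and in footprints it became 0.01 with the same split. Hormad1 turned from -0.31 to 0.49 in RNA (SE 0.18, interval 0.12 to 0.87, edgeR adjusted p 0.521) and from -0.69 to 0.01 in footprints. Tex12 turned from -0.05 to 0.40 in RNA (SE 0.14, edgeR adjusted p 0.512) and from -0.24 to 0.28 in footprints. Sycp1 turned to 0.29 in RNA and to 0.07 in footprints. Sycp3 turned to 0.22 in RNA and stayed below 0 at -0.06 in footprints.

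Without that extract Syce3 had the lowest estimate of the 9 in both assays, at -0.14 in RNA and -0.38 in footprints (SE 0.18, interval -0.77 to 0.01, edgeR adjusted p 0.8). Sycp2 remained below 0 at -0.12 and -0.07, and Syce2 at -0.02 and -0.08. Of the remaining 2, Syce1 turned to 0.04 and 0.17, and Hormad2 was at -0.03 in RNA and 0.07 in footprints. No gene of the 9 passed the test in either assay without the extract, when edgeR called 64 genes in RNA (0.43%) and 17 in footprints (0.125%). The intervals narrowed, for Sycp2 in RNA from -1.46 to 0.03 down to -0.43 to 0.18.

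**Figure D4:**
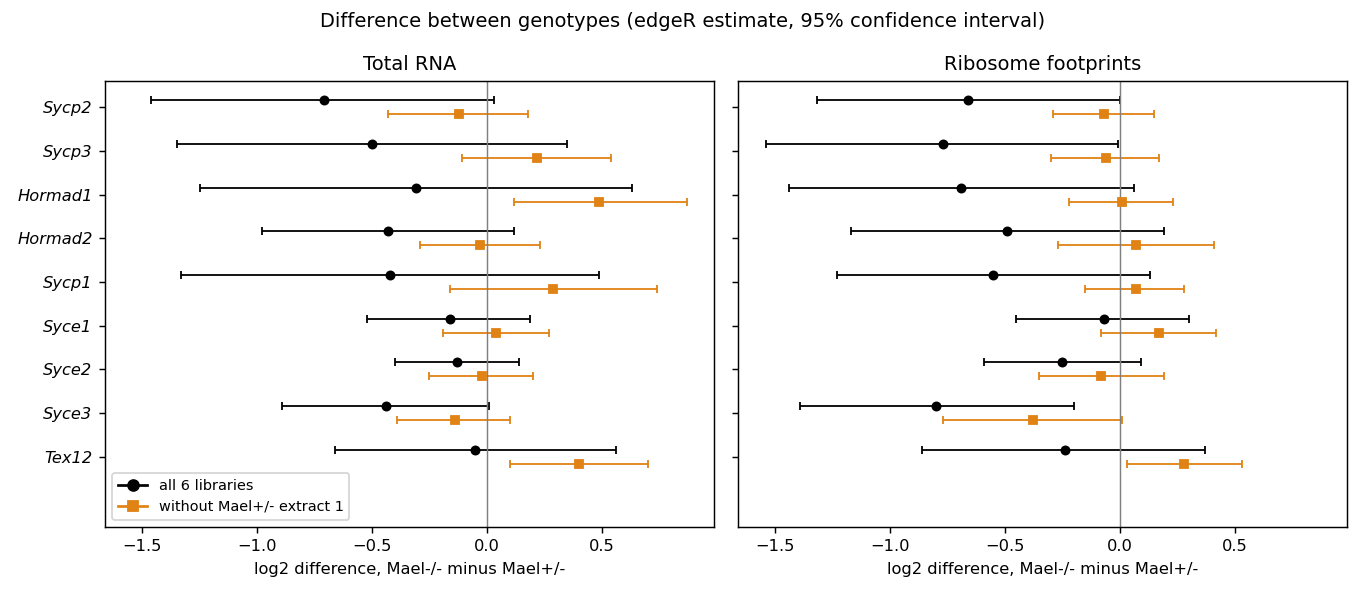
Log2 difference between genotypes (Mael-/- minus Mael+/-) of the 9 genes in RNA (left) and footprints (right), with 95% confidence intervals from edgeR. Black circles use all 6 libraries of the assay, and orange squares leave out Mael+/- extract 1. All black circles lie below 0, between -0.71 and -0.05 for RNA and between -0.80 and -0.07 for footprints. The squares lie on both sides of 0, with RNA between -0.14 and 0.49 and footprints between -0.38 and 0.28.

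Translation efficiency asks whether footprints changed beyond RNA, and was tested as the interaction of genotype with assay over all 12 libraries. None of the 9 genes passed, and none of the 13448 genes tested was called (0%), with 53 genes at an unadjusted p under 0.05. DESeq2 also called 0. The median log2 difference in efficiency was -0.13 over the 9 genes and -0.00 over all genes, with 7 of the 9 estimates below 0. Because the RNA and footprint libraries of an extract are pairs, the fit with the extract as a term was also made, and it too called 0 genes. It narrowed the intervals and gave Hormad1 a difference of -0.41 (SE 0.12, interval -0.67 to -0.15, edgeR p 0.00314, adjusted p 1) and Syce3 one of -0.34 (SE 0.14, edgeR p 0.0242, adjusted p 1).

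The extracts behind these estimates can be read as log2 of footprint CPM minus log2 of RNA CPM. Hormad1 had 1.06, 1.43 and 1.09 in the Mael+/- extracts and 0.67, 0.58 and 1.08 in the Mael-/- extracts. The groups overlapped, since Mael-/- extract 3 lay just above Mael+/- extract 1. Syce3 had -0.57, -0.75 and -0.82 in Mael+/- and -0.83, -0.98 and -1.36 in Mael-/-. Its groups were separated only by the step from -0.82 to -0.83, and the share of all genes separated in this ratio was not counted. Sycp3 had 1.03, 1.06 and 1.01 against 0.74, 0.48 and 1.13, with Mael-/- extract 3 the highest. In this ratio extract 1 of Mael+/- was the highest of the 6 for Syce2, Syce3, Tex12 and Hormad2 and lay within the range of the others for the other 5 genes. Without it, the difference in efficiency was -0.49 for Hormad1 and -0.24 for Syce3 in the fit with no extract term, neither of them called.

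**Figure D5:**
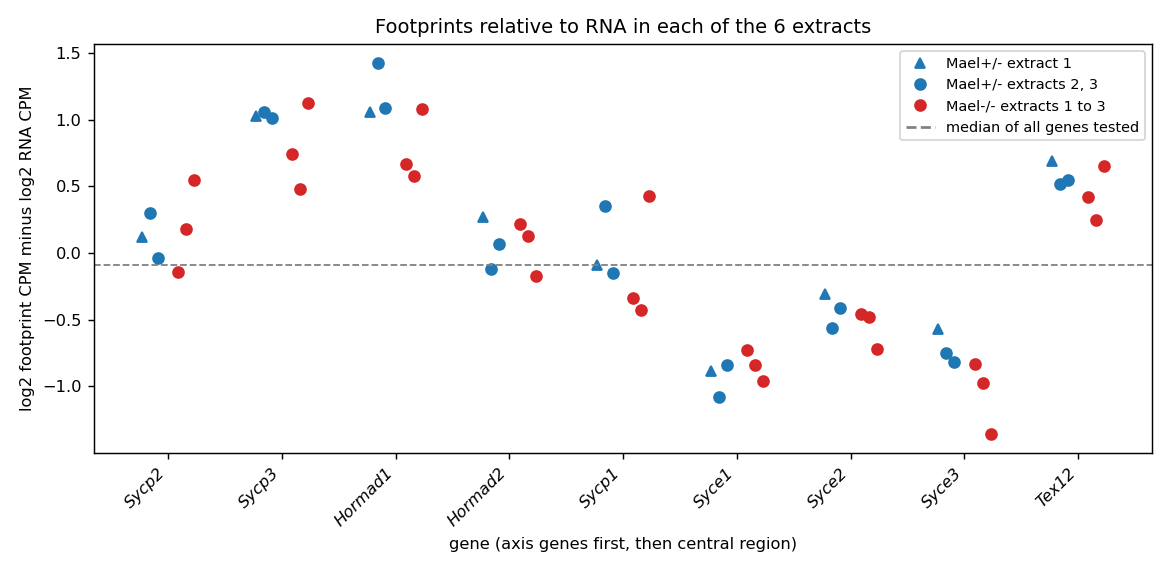
Log2 of footprint CPM minus log2 of RNA CPM in each of the 6 extracts for the 9 genes. Triangles are Mael+/- extract 1, blue circles the other Mael+/- extracts, red circles Mael-/-, and the dashed line is the median of all genes tested. Hormad1 and Sycp3 lie highest, Syce1 and Syce3 lowest, and the triangle lies within the range of the other points for 5 genes and above them for Syce2, Syce3, Tex12 and Hormad2.

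Footprints were also compared with RNA over both genotypes, which asks whether a gene's share of footprints lay above or below its share of RNA. The ratio took no account of length, so it is not a count of ribosomes per mRNA. This first fit had no extract term. Sycp3 and Hormad1 were called higher, and Syce1, Syce2 and Syce3 lower. That is 5 of the 9 genes, against 69.6% of the 13448 genes tested (29.7% higher, 39.9% lower), so a share of calls this size is no more than that of the background. The genes differed from each other in the direction and size of this ratio, and their order per kilobase, given below, was another. Hormad1 had a log2 ratio of 0.94 (SE 0.32, edgeR adjusted p 0.0177) and Sycp3 one of 0.90 (SE 0.31, edgeR adjusted p 0.0182). The central element genes Syce1 at -0.89 (SE 0.13, edgeR adjusted p 2.67e-05), Syce3 at -0.86 (SE 0.19, edgeR adjusted p 0.00114) and Syce2 at -0.48 (SE 0.11, edgeR adjusted p 0.00103) lay on the other side of 0. The median over all genes was -0.08.

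Tex12, the other central element gene, had a log2 ratio of 0.53 (SE 0.23, edgeR adjusted p 0.0537) and missed the threshold. With the extract as a term, Tex12 was at 0.52 (adjusted p 3.11e-08) and Sycp2 at 0.16 (adjusted p 0.0308), and 7 of the 9 genes were called by edgeR, 4 higher and 3 lower, against 34.6% and 44.5% of all genes. Sycp1 at -0.04 and Hormad2 at 0.08 were not called in that fit. Sycp3 and Hormad1 lost their calls without Mael+/- footprint library 1 alone, which leaves its RNA partner unpaired (0.55 and 0.60, adjusted p 0.058 and 0.0575). Without both libraries of that extract they were at 0.90 and 1.0 and were called, as was Tex12 at 0.49 (edgeR adjusted p 0.0003), when 70.7% of all genes were called.

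RNA was counted over whole mRNAs and footprints over coding sequence, so the ratio moves with the coding share of the transcript. That share was lowest for Tex12 at 36.8% and highest for Sycp1 at 86.7% in the longest coding transcript. Per kilobase of each, the log2 ratio of footprints to RNA was 1.97 for Tex12, 1.48 for Sycp3, 1.21 for Hormad2 and 1.18 for Hormad1, above the median of 0.82 over 12860 genes. It was 0.50 for Sycp2, 0.32 for Syce2, 0.12 for Sycp1, 0.00 for Syce3 and -0.32 for Syce1, below the median. Tex12 stood at percentile 89.3 of all genes by this measure and Sycp3 at 78.2. The central element genes held both ends of the order, with Syce1 and Syce3, whose proteins act where synapsis starts, at percentiles 5.09 and 10.8, and Syce2 at 22.4. Without Mael+/- extract 1 the same ratio was highest for Tex12 at 1.93 and lowest for Syce1 at -0.34, with Sycp3 at 1.48 and Syce3 at -0.05, beside a median of 0.82. One exon overlap bears on the values: 660 exonic bases of Sycp3 lie opposite Chpt1, a gene on the other strand, and whether counting used strand is not given in the sources used here. Sycp3 also has relatives in the Xlr gene family of the X chromosome, and reads that the genes may share were not examined.

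The other genes of the pathway were read from 4 lists. With all libraries, no gene of these lists was called in RNA, footprints or translation efficiency. The axis cohesins Rec8, Rad21l, Stag3, Smc1b and Smc3 had a median log2 difference of 0.16 in RNA and 0.11 in footprints, with 4 of 5 estimates above 0 in each. The 7 measured axis regulators and break formation genes had medians of -0.05 and -0.10, with Gm960, the Top6bl partner of the break enzyme, at -0.62 and -0.83 and Spo11, the break enzyme itself, at -0.62 and -0.65. The 9 measured synapsis and recombination genes had medians of -0.04 in RNA and -0.25 in footprints. The 5 genes of telomere attachment to the nuclear envelope had medians of -0.06 and -0.04. Without Mael+/- extract 1 the medians in RNA and footprints were 0.25 and 0.23 for the cohesins, -0.03 and -0.02 for the regulators, 0.30 and 0.13 for the synapsis list, and 0.20 and 0.21 for the telomere list. Meiob, which encodes a single-strand DNA binding protein of recombination, was at 0.05 in RNA with all libraries. Without the extract it was called higher in Mael-/- RNA, at 0.71 (SE 0.15, edgeR adjusted p 0.0492), in a fit that called 64 genes (0.43%). The extract was singled out for its high meiotic markers, and leaving out a high Mael+/- library raises the estimate. The adjusted p also lies just under the threshold. Meiob was then at 0.50 in footprints, not called. Spo11 was at -0.19 and -0.20 and Gm960 at -0.43 and -0.61 without that extract. Ankrd31 and Rnf212 had no matching row under their symbols or synonyms and were not analysed here.

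In footprints against RNA, genes of these lists were called in both directions, beside 29.7% of all 13448 genes called higher and 39.9% lower. The calls were 2 of 5 cohesins, 2 of 7 regulators and 5 of 9 synapsis genes higher, and 1 of 5 telomere genes lower. Only the telomere list had a gene called lower, and it had 0 called higher, while the other lists had 0 called lower. Whether the lists lean toward higher calls was not tested. Rad21l (1.03) and Rec8 (0.46), the meiotic kleisins of the axis, were called higher, as were Mei4 (0.41) and Mei1 (0.26) of break formation. Of the synapsis list Tex11 (0.81), 4930447C04Rik or Six6os1 (0.78), a central element protein that binds SYCE1, Meiob (0.74), Spata22 (0.72) and Fkbp6 (0.37) were called higher, and Sun1 (-0.30) of the telomere list was called lower. Without Mael+/- extract 1, when 70.7% of all genes tested were called, Mei1 was not called (0.22, edgeR adjusted p 0.0804). Ccdc36 at -0.31 and Spo11 at -0.35 were then called lower. Msh4 at 0.36, Msh5 at 0.30, Ccdc155 at 0.49 and 4933406J08Rik at 0.54 were called higher. SIX6OS1 and SYCE1 are partners in the central element, and their log2 ratios stood on opposite sides of 0. These ratios were not corrected for coding share, and that of Six6os1 had a wide interval, 0.12 to 1.45.

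Among the stage and cell type lists, no gene was called with all libraries in RNA, footprints or translation efficiency. Pachytene markers had a median log2 difference between genotypes of -1.53 over the 11 tested in RNA and -1.43 over the 9 tested in footprints. These medians rest in large part on Mael+/- extract 1, and without it they were -0.46 and -0.44. In RNA 10 of the 11 then lay below 0. Adam2, a sperm surface gene, was called lower at -1.96 (edgeR adjusted p 0.00273), as was the chaperone gene Hspa2 at -0.43 (edgeR adjusted p 0.0498). That fit called 0.43% of all genes tested. In footprints 8 of the 9 lay below 0 and none was called. Early prophase markers outside the 9 genes, 5 of which stand also in the lists above, had medians of 0.06 and 0.02. Spermatogonial markers had -0.04 and -0.04, spermatid markers 0.07 and -0.02 over the 5 and 2 tested, Sertoli markers 0.01 and 0.06, Leydig markers 0.02 and -0.03, and macrophage markers 0.40 and 0.24. Of the 5 red blood cell markers, the 4 globin genes were listed at 0 in all 12 libraries and only Alas2 was tested, at -0.07 in RNA and -0.11 in footprints. Without Mael+/- extract 1 the RNA and footprint medians were 0.24 and 0.27 for early prophase, where Meiob was the gene called, -0.12 and -0.13 for spermatogonia, 0.22 and -0.05 for spermatids, 0.07 and -0.03 for Sertoli cells, -0.02 and -0.10 for Leydig cells and 0.31 and 0.12 for macrophages.

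In footprints against RNA, 29.7% of the 13448 genes were called higher and 39.9% lower, and the counts of these lists stand beside those shares. Early prophase had 4 of 10 genes higher and 2 lower, with Rad21l, Rec8, Tex101, Gm1564 and Prdm9 of the smallest p, and pachytene 2 of 9 higher and 2 lower, among Tbpl1, Mybl1, Meig1 and Hspa2. Spermatogonia had 4 of 10 higher and 4 lower, Sertoli cells 8 of 10 higher, Leydig cells 5 of 8 higher and macrophages 4 of 6 higher, while Spaca1 of spermatids, 1 of 2 tested, and Alas2 were lower. Without Mael+/- extract 1 the counts were 5 higher and 3 lower for early prophase, 5 and 2 for pachytene, 5 and 4 for spermatogonia, and the same as with it for the other 5 lists of this paragraph.

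The pattern of the 9 genes over the 12 libraries, each centred on the mean of its assay, was shared to different degrees. Sycp3 followed the mean of the other 8 most closely, with Pearson's r of 0.98 over 12 libraries, and Hormad1, Hormad2 and Sycp2 each had 0.96. Syce2 had the lowest r at 0.79, and Syce3 had 0.84. Over the 36 pairs of genes r ran from 0.60 to 0.98. These libraries share extracts and 1 of them stands apart, and without Mael+/- extract 1 the values were 0.79 for Sycp3, 0.78 for Hormad1, 0.32 for Syce2 and 0.08 for Syce3 over 10 libraries.

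Outside the 9 genes, the 5 rows most like their mean among 13416 genes were Ube2t (r 0.991), Dmrtc2 (0.988), Spdya (0.982), Tdrkh (0.980) and 4930524B15Rik (0.979), over 12 libraries. Spdya encodes Speedy A, which activates CDK2 at meiotic telomeres, and Tdrkh encodes a Tudor-domain protein of the piRNA pathway. Their log2 differences between genotypes in RNA were -0.26, -0.37, -0.39, -0.18 and -0.71 in the same order, none of them called. Without Mael+/- extract 1, r was 0.875 for Ube2t and 0.909 for Spdya, and Spdya stayed among the 5 highest while the other 4 did not.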

How the data were processed

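Testes of Mael+/- and Mael-/- mice were profiled as total RNA and as ribosome footprints, 3 libraries per group. The authors clipped footprint reads and trimmed their molecular identifiers with FASTX-Toolkit, removed rRNA reads with Bowtie 1.2.2, aligned to mm10 with STAR 2.6.0c and counted with featureCounts of Subread 1.6.4, RNA over mRNAs and footprints over coding sequence. Whether duplicates were collapsed, the strand setting and the annotation release are not given in the sources used here. The authors deposited raw counts per gene and per repeat copy in 1 table, and only the gene rows were used. No 2 libraries held identical values.

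Counts were analysed with edgeR 4.0.16 in R 4.3.3 (TMM factors within each assay on genes passing filterByExpr, quasi-likelihood tests, Benjamini-Hochberg adjustment). Before that, the fits were tried on simulated data with 200 changed genes. The simulated counts had the same spread for all genes and no extract that stood apart, so they do not bear on Mael+/- extract 1. DESeq2 1.42.0, other factors and filters, a replicate block and leaving out each library were alternatives. Mouse gene lengths came from GENCODE and promoters from RefSeq. The members and lists were chosen with earlier results of these data known. The text names the 9 genes, Mael, list genes that were called, and the 5 rows most like the 9, chosen where the mean count per library was 10 or more in each assay.

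The methods state that RNA was taken from aliquots of the extracts used for footprints. Libraries of a genotype with the same number were taken as pairs, which the methods do not spell out. Their deviations from the group means correlated at 0.59 to 0.74 in Mael+/- and at 0.22 to 0.24 in Mael-/- over 13448 genes. The main fits of translation efficiency and of footprints against RNA had no extract term. The extract was a block in the paired fits given beside them. The labels do not say that replicates are separate animals, and p-values measure the spread between these libraries.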

Additional observations from a re-analysis of the deposited data

How the results depend on the processing

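No call of the 9 genes in RNA, footprints or translation efficiency was made under any alternative that was run: DESeq2, median-of-ratios factors, no filter on low counts, a mean of at least 50 counts, the replicate block, or leaving out each library. Leaving out the Mael+/- library of extract 1 turned the sign of 5 of the 9 genes in each assay. Tex12 in RNA and Syce1 in footprints also turned without Mael-/- library 3, to 0.08 and 0.01. With libraries left out in turn, the median log2 difference of the 9 genes lay between -0.59 and 0.04 for RNA, between -0.81 and 0.01 for footprints and between -0.64 and 0.33 for translation efficiency, each time with 0 genes called, and for footprints against RNA between -0.17 and 0.30 with 3 to 6 genes called. The high value of 0.33 came without Mael+/- footprint library 1 and the low value of -0.64 without Mael+/- RNA library 1, which each break a pair. The 3 called without Mael+/- footprint library 1 were Syce1, Syce2 and Syce3. DESeq2 called 4 of the 9 in footprints against RNA, without Sycp3 (0.89, adjusted p 0.0541).

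With the replicate number as a block, Tex12 in RNA turned to 0.03, and the edgeR calls over all genes went up, to 50 against 17 in RNA and to 23 against 8 in footprints. Same-numbered libraries of the 2 genotypes share only a number: their deviations correlated at 0.00 to 0.21 in RNA and 0.03 to 0.18 in footprints, and 3 of 6 and 4 of 6 libraries correlated best with their own number. With the extract as a block, 7 of the 9 genes were called in footprints against RNA, and it changed no other call of the 9. The levels, gene lists and ratios per kilobase without Mael+/- extract 1 were added after seeing the data. The extract block without Mael+/- extract 1, chosen after seeing the data, gave Hormad2 a difference in translation efficiency of 0.09, against 0.10 with no block, and Sycp2 a footprint ratio of 0.17 (edgeR adjusted p 0.0499).

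Per kilobase of the shortest coding transcript, Hormad2 RNA was at 21.0 CPM in Mael+/- and 15.5 CPM in Mael-/-, and it stayed the lowest of the 9. In the likeness to the 9 genes, only Spdya stayed among the 5 highest by Spearman's rho or without Mael+/- extract 1. With 3 libraries a group and 1 apart, intervals were wide: that of Hormad1 in RNA ran from -1.25 to 0.63, and smaller differences were not detectable here. The cause of the excess in extract 1 was not tested.

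Single genes changed sign when 1 library was left out, with these lowest and highest log2 values over the fits. For RNA the ranges were -0.76 to 0.29 for Sycp1, -0.81 to 0.22 for Sycp3, -0.32 to 0.04 for Syce1, -0.27 to 0.40 for Tex12 and -0.65 to 0.49 for Hormad1. For footprints they were -0.81 to 0.07 for Sycp1, -0.20 to 0.17 for Syce1, -0.48 to 0.28 for Tex12, -0.97 to 0.01 for Hormad1 and -0.72 to 0.07 for Hormad2. For translation efficiency they were -0.84 to 0.48 for Sycp1, -0.54 to 0.64 for Sycp2, -0.99 to 0.44 for Sycp3, -0.11 to 0.33 for Syce1, -0.24 to 0.05 for Syce2, -0.65 to 0.06 for Syce3, -0.64 to 0.33 for Tex12, -1.18 to 0.32 for Hormad1 and -0.47 to 0.50 for Hormad2. For footprints against RNA they were -0.39 to 0.26 for Sycp1, -0.14 to 0.44 for Sycp2 and -0.17 to 0.30 for Hormad2.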
